A study of Mus musculus with 24 samples.

Results

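The genes described here are the nuclear receptors that lie outside the core circadian clock, 34 of the 34844 gene names on the array. They were chosen by name, as members of the nuclear receptor superfamily other than those counted with the clock. All 34 had at least 1 probe, 57 probes in all, and they fall into 18 families. The RNA came from male C57BL/6 mice aged 2 months that carried a human PER1 (hPER1) sequence and had been kept in a light-dark cycle for 10 days. Liver of hPER1S714G mice at ZT13, liver of hPER1S714 mice at ZT13, liver of hPER1S714G mice at ZT1 and liver of hPER1S714 mice at ZT1 made 4 groups, and white adipose tissue of the same genotypes and times made 4 more. Each group had 3 arrays, 24 in all. S714G is the mutant form of the human protein and S714 its control, so that the control mice carry a human PER1 sequence too. How that sequence was introduced and which promoter drives it are not given in the sources used here, nor is whether both tissues of a number came from 1 mouse. ZT counts hours from lights on, which makes ZT1 early in the light phase and ZT13 early in the dark phase.

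Nuclear receptors are transcription factors with a DNA-binding domain and a ligand-binding domain, and many of them act when a lipid, steroid, thyroid hormone, retinoid or bile acid derivative binds them. Many family members pair with a retinoid X receptor on DNA repeats of the half-site AGGTCA, and all of them depend on coactivators and corepressors. In liver they are known for control of sterol, bile acid, drug, fat and glucose metabolism, and in adipose tissue for control of fat storage and oxidation. The clock receptors REV-ERB and ROR alpha and gamma bind related elements and are not among the 34.

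Values are log2 of the processed signal minus the log2 of the same array's 75th percentile, so that 0 is the level of the 75th percentile and a step of 1 is a factor of 2. Levels of different genes come from different probes and are not compared. A difference is given with its standard error (SE) from limma, was tested over all genes of the tissue, and was called where the Benjamini-Hochberg adjusted p was under 0.05. In bulk tissue, a change in the RNA of a cell and a change in the number of cells of a type cannot be told apart. The 75th percentile of the signal lay between 406 and 2027 units and 45.5% to 71.2% of the spots of an array were well above background. The arrays lay on 3 slides of 8. Slide 1 held the S714 ZT1 arrays of both tissues and adipose S714G ZT1 replicates 1 and 2. Slide 2 held adipose S714G ZT1 replicate 3, liver S714G ZT1, adipose S714 ZT13 and liver S714 ZT13 replicate 1, and slide 3 held the other 8. Only liver at ZT13 (slide 3) and adipose tissue at ZT1 (slide 1) had both genotypes on 1 slide, and no slide held both times of 1 tissue and genotype. A fit over 24 arrays with slide as a block is therefore given beside the results. Its step between slides 1 and 2 rests on adipose S714G ZT1 replicate 3 against replicates 1 and 2, and its step between slides 2 and 3 on liver S714 ZT13 replicate 1 against replicates 2 and 3.

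The tissue labels were checked against markers. Summed over 10 adipocyte markers, the log2 level was 3.25 to 4.04 in liver and 8.93 to 9.51 in adipose tissue, and over 12 hepatocyte markers it was 10.31 to 11.13 in liver and 6.75 to 9.44 in adipose tissue. The clock genes set the genotypes apart. Arntl, which encodes the clock activator BMAL1, differed by 3.91 (SE 0.20) between S714G and S714 liver at ZT13 and by -2.77 (SE 0.20) at ZT1. Dbp, a clock output gene, differed by -3.59 at ZT13 and 3.16 at ZT1, and the clock gene Per1 by -1.66 and 3.30.

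Of the 34 receptors, 29 passed the filter on low signal in liver and 30 in adipose tissue, and 22 were well above background on all 24 arrays. The filter asked that the 3 arrays of some group of the tissue all measured the probe well above background. Hnf4g, Nr4a3, Nr6a1 and Pgr passed in neither tissue. Vdr, the vitamin D receptor, passed in adipose tissue only.

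Ppard, which encodes PPAR delta, a receptor for fatty acids that is known for the control of fatty acid oxidation, gave the largest genotype difference of the receptors tested in liver at ZT13. Its log2 level was 1.43, 1.77 and 1.66 in S714G livers at ZT13, against -0.56, -0.92 and -1.11 in S714 livers at ZT13. All S714G values lay above all S714 values. At ZT1 the levels were -1.14, -1.24 and -1.13 in S714G livers, against 1.23, 0.87 and 0.62 in S714 livers, and the S714G values all lay below the S714 values.

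Ppard was thus 5.61-fold higher in S714G than in S714 livers at ZT13 (log2 difference 2.49, SE 0.19, limma adjusted p = 7.7e-05) and 4.22-fold lower at ZT1 (log2 difference -2.08, SE 0.19, limma adjusted p = 4.4e-05). Across the day it rose by 2.79 at ZT13 relative to ZT1 in S714G livers (6.93-fold, limma adjusted p = 7.0e-05). In S714 livers it fell by 1.77 at ZT13 relative to ZT1 (3.42-fold, limma adjusted p = 5.55e-05). The genotype by time interaction in liver, the ZT13 genotype difference minus the ZT1 one, was 4.57 (SE 0.27, limma adjusted p = 3.94e-06). With the slide block the genotype differences were 2.64 at ZT13 and -2.49 at ZT1, the S714 time difference was -1.88 and the interaction was 5.13, all called. Within slide 3, where 3 S714G and 2 S714 arrays at ZT13 stood side by side, the difference was 2.64 (SE 0.15, limma adjusted p = 0.00494).

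In adipose tissue Ppard behaved otherwise. At ZT13 it was at 1.27, 1.24 and 1.36 in S714G mice, against 1.14, 0.93 and 1.01 in S714 mice. At ZT1 it was at 0.70, 0.10 and 0.81 in S714G mice, against 0.16, -0.05 and 0.34 in S714 mice. The genotype differences were 0.26 at ZT13 and 0.39 at ZT1 and neither was called. On its brighter probe both genotypes had the higher level at ZT13. The time difference was 0.88 (SE 0.22, limma adjusted p = 0.0305) in S714 mice, which was called. It was 0.75 in S714G mice and was not called. The adipose interaction was -0.13, and the difference between the liver and the adipose interaction was 4.69 (SE 0.40, limma adjusted p = 3.02e-06). For comparison, the same difference for Arntl was -1.03 and was not called (limma adjusted p = 0.379), and the genotype differences of Arntl in adipose tissue were 5.53 at ZT13, which was called, and -2.19 at ZT1, which was not (limma adjusted p = 0.0854).

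**Figure D1:**
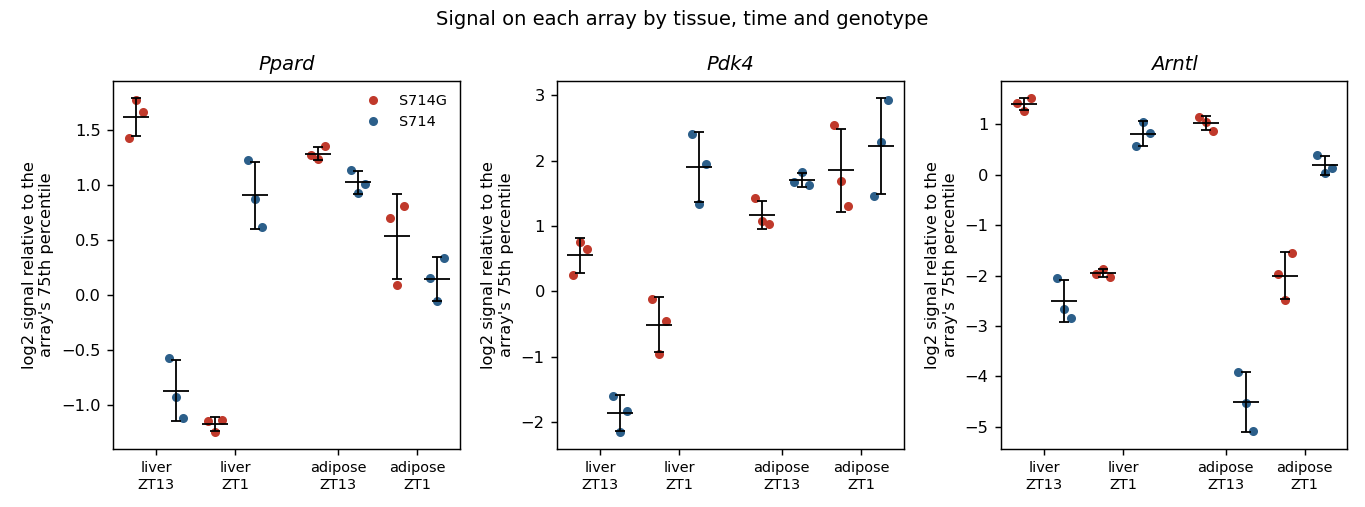
Log2 signal relative to the array's 75th percentile for Ppard, Pdk4 and Arntl on each array, by tissue, time and genotype, with the group mean and SD. In liver the 3 Ppard values of S714G mice lie above those of S714 mice at ZT13 and below them at ZT1, and in adipose tissue the Ppard groups differ by at most 0.39 between genotypes.

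The values of Ppard come from the brighter of its 2 probes, at chr17:28438298-28438357 on the plus strand of mm9. The other probe lies upstream, at chr17:28410049-28410108, and carries no accession that matched RefSeq. It was well above background on 2 of 12 liver arrays and 12 of 12 adipose arrays. Its liver differences were 0.19 at ZT13 and -0.02 at ZT1, so that it did not show the pattern of the brighter probe. In adipose tissue its ZT13 minus ZT1 difference was -0.34 in S714 mice and -0.24 in S714G mice. Both were opposite in sign to those of the brighter probe.

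RefSeq lists 1 start site for Ppard, and the 250 bases before it (GRCm38.p6, chr17:28232504-28232753, plus strand) are shown because Ppard is the receptor the liver results turn on.
Ppard: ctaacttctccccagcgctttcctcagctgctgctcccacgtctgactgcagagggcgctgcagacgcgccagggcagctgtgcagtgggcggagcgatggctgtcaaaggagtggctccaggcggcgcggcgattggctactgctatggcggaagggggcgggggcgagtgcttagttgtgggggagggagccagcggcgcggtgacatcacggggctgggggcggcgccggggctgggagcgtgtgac
These bases are 69.6% G or C. A search of both strands found no E-box CACGTG, the element that BMAL1 and its partners bind, no D-box TTATGTAA, the element of DBP and related factors, and no half-site AGGTCA in this window. Over the 31 receptors with 50 such promoter entries, 3 entries held the E-box, which is in 6.02% of 32851 promoters, and 6 entries held the half-site, which is in 14% of them. The D-box was in 0 of the 50 entries and in 0.819% of all. The entries with an E-box belonged to Nr1i3, Rara and Thrb.

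Genes known as targets of PPAR delta or of the oestrogen-related receptors (ERR) were looked at beside Ppard. Pdk4, a kinase that restrains pyruvate oxidation, was at 0.25, 0.75 and 0.65 in S714G livers at ZT13, against -1.60, -2.15 and -1.84 in S714 livers at ZT13. It was at -0.12, -0.96 and -0.45 in S714G livers at ZT1, against 2.41, 1.34 and 1.95 in S714 livers at ZT1. As with Ppard, the S714G values were all higher at ZT13 and all lower at ZT1. Pdk4 rose by 2.41 (SE 0.29, limma adjusted p = 0.00154) at ZT13 and fell by 2.41 at ZT1. At ZT1 the call was lost with the slide block, with a difference of -1.60 (limma adjusted p = 0.389). Cpt1a, which carries fatty acids into mitochondria, had the opposite directions. It was at 3.93, 4.12 and 4.03 in S714G livers, against 4.67, 5.04 and 4.77 in S714 livers at ZT13, a difference of -0.80 (SE 0.14, limma adjusted p = 0.0101). At ZT1 its difference was 0.70, and 0.65 with the slide block, where it was not called. These 2 were the members of the list of 11 that were called at ZT13, where 3.01% of all genes were called. At ZT1, 4 of the 11 rose and 1, Pdk4, fell, where 46.6% of all genes were called. With the slide block 0 of the 11 were called at ZT1, where 0.348% of all genes were called.

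Receptors act through coregulators, and both PGC-1 genes, which encode coactivators of PPARs and ERRs, were lower in S714G liver at ZT13. Ppargc1a was at 0.82, 0.41 and 0.45 in S714G livers and at 1.16, 2.01 and 1.56 in S714 livers, with no overlap and a difference of -1.02 (SE 0.22, limma adjusted p = 0.0343). Ppargc1b was at -1.5, -1.28 and -1.68 in S714G livers and at -0.46, -0.33 and -0.62 in S714 livers, also with no overlap and a difference of -1.02 (SE 0.20, limma adjusted p = 0.0214). At ZT1 Ppargc1b rose by 1.18. With the slide block neither Ppargc1b call held, at -1.01 (limma adjusted p = 0.0522) at ZT13 and 0.83 (limma adjusted p = 0.592) at ZT1, while Ppargc1a at ZT13 was at a difference of -1.23 (limma adjusted p = 0.00889). These were the only 2 of 20 coregulators called at ZT13 without the block, where 3.01% of all genes were called. The difference between the liver and adipose interactions was -2.75 for Ppargc1b and 4.98 for Pdk4, both called, and with the slide block -2.53, which was not called (limma adjusted p = 0.109), and 4.18, which was.

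Ppard was the only 1 of the 29 receptors called between genotypes in liver at ZT13, where 3.01% of all 21822 genes were called. The median difference was 0.02 over the 29 receptors and 0.03 over all genes. An unadjusted p under 0.05 was reached by 6 of the 29 receptors and by 3234 of all 21822 genes. Apart from Ppard, 5 of the receptors reached it without passing the adjusted threshold. They were Rxra (-0.52), Rxrg (0.65), Esrrg (-0.86), Rxrb (-0.54) and Esrra (-0.49), with limma adjusted p values of 0.167 to 0.291. Of these, Rxra, the main RXR partner of liver receptors, was at -0.66, -0.46 and -0.56 in S714G livers and at -0.08, -0.06 and 0.01 in S714 livers, which did not overlap. Within slide 3, where 4.29% of all genes were called, Rxrg (0.91, limma adjusted p = 0.0354) and Rxrb (-0.61, limma adjusted p = 0.0472) were called as well. Rxrg was at 1.02, 1.25 and 1.28 in S714G livers, against 0.18 and 0.37 on the S714 arrays of that slide, while the S714 array on slide 2 was at 1.06.

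Marker lists of other cell types were set beside this comparison. Of 14 lists, the summed log2 level did not overlap between genotypes in liver at ZT13 for 3. The brown adipocyte list of 6 genes was at 3.43 to 4.04 in S714G livers and 2.18 to 2.41 in S714 livers. Elovl3, a fatty acid elongase that hepatocytes also express, was at 2.90 to 3.59 in S714G livers and 0.09 to 0.47 in S714 livers, while Ucp1, the defining gene of that list, was well above background on 0 of 12 liver arrays. Mesothelial markers summed to 0.46 to 1.62 in S714G livers and -0.51 to 0.28 in S714 livers. Epididymis markers summed to -1.75 to -1.72 in S714G livers and -1.71 to -1.53 in S714 livers. Of the 6 epididymis markers, 5 in S714G and 4 in S714 livers were well above background on no array, so that this sum rests on few measured genes. The part of these lists in the receptor values was not tested.

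**Figure D2:**
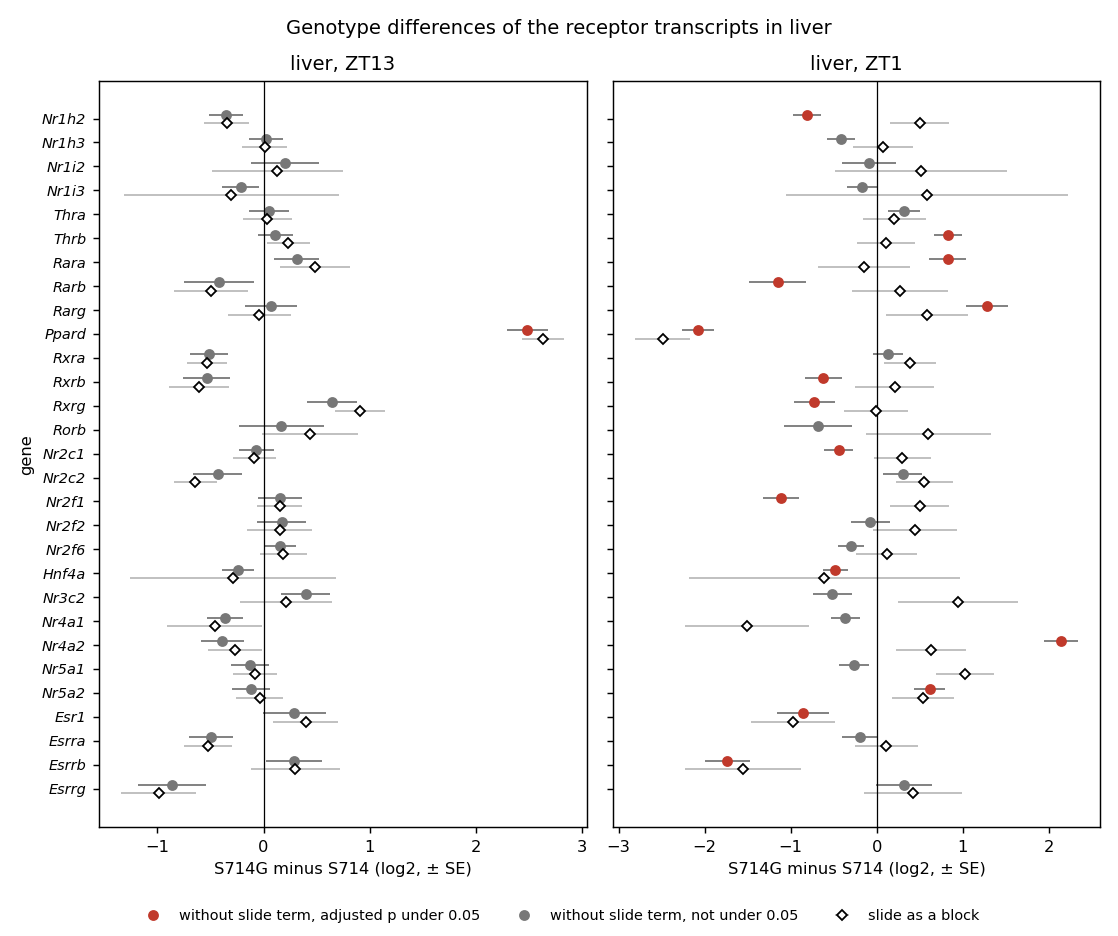
Difference S714G minus S714 in liver (log2, bars are SE) for the 29 receptors tested, at ZT13 and at ZT1, with the value from the fit with slide as a block as diamonds. Ppard stands at 2.49 and -2.08, with diamonds at 2.64 and -2.49, and is the only receptor called in both panels.

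At ZT1 in liver, 15 of the 29 receptors were called between genotypes, 5 higher and 10 lower in S714G mice, where 46.6% of all genes were called (16.7% higher and 29.8% lower). The median difference was -0.30 over the receptors and -0.21 over all genes. All 3 S714G arrays were on slide 2 and all 3 S714 arrays on slide 1, so that genotype and slide cannot be told apart within this comparison. With the slide block 1 receptor, Ppard, was called, where 0.348% of all genes were called, and 9 of the 15 differences kept their sign. The other comparison of slide 2 with slide 1 was the one of ZT13 with ZT1 in adipose tissue of S714 mice. There 12 of the 15 receptors differed in the same direction as at ZT1 in liver, as did 93.2% of the 9740 genes called at ZT1 in liver and measured in both. Marker lists of other cell types also differed, and 7 of the 14 did not overlap between genotypes in liver at ZT1. Adipocyte markers summed to 3.85 to 4.04 in S714G livers and 3.25 to 3.53 in S714 livers. The T cell, brown adipocyte, endothelium, epididymis, testis and skeletal muscle lists were lower in S714G. T cell markers summed to 1.10 to 1.35 in S714G and 1.73 to 1.96 in S714 livers, and endothelium markers to 4.27 to 4.36 and 4.48 to 4.69. In both genotypes 4 of 6 epididymis and 3 of 4 testis markers were well above background on no array, so that those sums rest on few measured genes. The part of these lists in the receptor values was not tested. The ZT1 values below are given with the block value beside them.

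Among the receptors for lipids and hormones, Nr1h2, which encodes the oxysterol receptor LXR beta, was at 2.01, 2.08 and 2.29 in S714G livers at ZT1, against 3.25, 2.70 and 2.87 in S714 livers. The difference was -0.81 (SE 0.16), without overlap, and 0.50 with the block. In the adipose S714G ZT1 group, which straddles both slides, Nr1h2 was at 2.26 on slide 2 and at 3.95 and 3.20 on slide 1. Nr1h3, the LXR alpha gene, had a difference of -0.42 and was not called (limma adjusted p = 0.0508). A second Nr1h3 probe, well above background on all arrays, had the opposite sign, at 0.43. Thrb, the main thyroid hormone receptor of hepatocytes, was at 0.86, 0.78 and 0.85 in S714G livers, against -0.07, 0.09 and -0.01 in S714 livers. Its difference of 0.83 (SE 0.17) was 0.11 with the block. Esr1, oestrogen receptor alpha, was at 0.18, 0.29 and 0.22 in S714G livers and at 1.99, 0.62 and 0.65 in S714 livers, a difference of -0.85 (SE 0.30) that was -0.97 with the block.

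All 3 retinoic acid receptors were called, in both directions. Rara was at 0.64, 0.54 and 0.59 in S714G livers and at 0.07, -0.66 and -0.12 in S714 livers, a difference of 0.82 (SE 0.21), or -0.15 with the block. Rarb was at -1.88, -1.30 and -1.66 in S714G livers and at 0.34, -1.0 and -0.73 in S714 livers, a difference of -1.15 (SE 0.33), or 0.27 with the block. Rarg was at -1.71, -2.10 and -2.69 in S714G livers and at -3.39, -3.18 and -3.78 in S714 livers, a difference of 1.29 (SE 0.24), or 0.59 with the block. In none of them did the groups overlap. Of 2 further Rarb probes above background, one had the same sign, with a difference of -0.95, and the other the opposite sign, at 0.62. Of the retinoid X receptors, the obligate partners of the retinoic acid, thyroid hormone and PPAR receptors, Rxra was not called. Rxrb was at 2.64, 3.04 and 3.05 in S714G livers and at 4.08, 3.28 and 3.23 in S714 livers, a difference of -0.62 (SE 0.22), or 0.21 with the block. Rxrg was at 0.83, 0.91 and 1.19 in S714G livers and at 2.06, 1.42 and 1.63 in S714 livers, a difference of -0.72 (SE 0.24), or -0.01 with the block. Neither pair of groups overlapped. A second Rxrg probe had a difference of 0.62.

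Among the receptors without a known hormone, Hnf4a, which maintains hepatocyte gene expression, was at 4.95, 4.70 and 4.80 in S714G livers, against 5.37, 5.10 and 5.43 in S714 livers. The groups did not overlap, and the difference of -0.48 (SE 0.15) was -0.61 with the block. Nr5a2, which encodes LRH-1, a regulator of bile acid and cholesterol genes, was at 3.15, 3.26 and 3.16 in S714G livers, against 2.95, 2.52 and 2.26 in S714 livers. Its difference was 0.61 (SE 0.18), and 0.54 with the block. A second Nr5a2 probe, well above background on all of these arrays, had a difference of 0.05. Esrrb, an oestrogen-related receptor, was at -2.43, -2.51 and -2.43 in S714G livers and at -0.25, -0.78 and -1.13 in S714 livers, a difference of -1.73 (SE 0.26) that was -1.55 with the block. Nr2f1, which encodes COUP-TF1, was at -1.09, -1.37 and -1.24 in S714G livers and at 0.29, -0.51 and -0.14 in S714 livers, a difference of -1.11 (SE 0.21) that was 0.50 with the block. In adipose S714G mice at ZT1 it was at 1.26 on slide 2 and at 2.97 and 2.79 on slide 1. Nr2c1, a testis receptor, was the only called receptor whose groups overlapped, at -0.44 (0.30 with the block). A second Nr2c1 probe had a difference of 0.18.

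Nr4a2, an orphan receptor induced as an immediate early gene, was at -3.27, -3.11 and -2.74 in S714G livers and at -5.53, -5.10 and -4.92 in S714 livers at ZT1. It was well above background on 2 of 3 S714G arrays and 0 of 3 S714 arrays there, so that only a bound holds, at least 1.73-fold higher in S714G. The limma adjusted p = 5.1e-05 belongs to its fitted difference, which used S714 values not well above background, and does not test the bound. With the block its fitted difference was 0.63. In adipose S714G mice at ZT1 it was at -1.29 on slide 2 and at -2.47 and -3.14 on slide 1. A second Nr4a2 probe had a liver genotype difference of 0.615 at ZT1. That probe was well above background on 2 of 3 S714G and 1 of 3 S714 arrays there.

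Time of day was compared within each genotype. In S714G livers 1 of 29 receptors, Ppard, was called, where 1.99% of all genes were called. In S714 livers 17 were called, 7 higher and 10 lower at ZT13, where 52.4% of all genes were called (19.5% higher and 33.0% lower), and with the slide block 1, again Ppard, where 0.761% of all were. The S714G arrays were on slide 3 at ZT13 and slide 2 at ZT1, and the S714 arrays on slides 2 and 3 at ZT13 and slide 1 at ZT1. The calls in S714 livers beyond Ppard included the xenobiotic receptor gene Nr1i3, at 4.02, 4.36 and 4.21 at ZT13 and at 3.94, 3.29 and 3.60 at ZT1 (difference 0.59, SE 0.17). In S714G livers Nr1i3 was at 3.96, 4.10 and 3.89 at ZT13 and at 3.52, 3.37 and 3.42 at ZT1, also without overlap, a difference of 0.55 that was not called (limma adjusted p = 0.156). The interaction for Nr1i3 was -0.04. Next by p in S714G livers came Rarg, at -2.72, -2.89 and -3.04 at ZT13 and at -1.71, -2.10 and -2.69 at ZT1, a difference of -0.72 that was not called (limma adjusted p = 0.183).

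Among the receptors higher at ZT13 in S714 livers, Thrb was at 1.04, 0.81 and 0.53 at ZT13 and at -0.07, 0.09 and -0.01 at ZT1 (difference 0.79, SE 0.17, or 0.32 with the block). Esrra, which encodes ERR alpha, was at 1.20, 1.41 and 1.15 at ZT13 and at 0.59, 0.41 and 0.71 at ZT1 (0.68, SE 0.21, or 0.94 with the block). Rxra was at -0.08, -0.06 and 0.01 at ZT13 and at -0.12, -0.70 and -0.67 at ZT1 (0.45, SE 0.18, or 0.67 with the block). Nr4a2, at -2.86, -3.17 and -3.29 at ZT13, was at least 1.66-fold higher there than at ZT1, where no array measured it well above background. In liver it passed the filter through ZT13 alone, so that its entry into this comparison rested on the time where it was high. In these 4 genes the times did not overlap. Thra (0.49, or 0.34 with the block) and Rara (0.60, or -0.031 with the block) were called with times that overlapped.

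Among those lower at ZT13 in S714 livers, Nr2f1 was at -1.71, -1.97 and -1.43 at ZT13 and at 0.29, -0.51 and -0.14 at ZT1 (difference -1.58, SE 0.21, or 0.024 with the block). Rxrg was at 1.06, 0.18 and 0.37 at ZT13 and at 2.06, 1.42 and 1.63 at ZT1 (-1.17, SE 0.24, or 0.078 with the block). Nr3c2, the mineralocorticoid receptor gene, was at -3.38, -2.90 and -2.72 at ZT13 and at -2.19, -1.5 and -2.10 at ZT1 (-1.07, SE 0.23, or 0.003 with the block). None of these genes had times that overlapped. Rarb was at -1.69, -1.03 and -1.92 at ZT13 and at 0.34, -1.0 and -0.73 at ZT1 (-1.08, SE 0.33, or 0.19 with the block). Nr2f2, which encodes COUP-TF2, was at -0.04, 0.10 and -0.07 at ZT13 and at 1.37, 0.26 and 0.67 at ZT1 (-0.77, SE 0.23, or -0.28 with the block). Nr2c1 was at 0.66, 0.82 and 0.60 at ZT13 and at 1.63, 1.15 and 1.5 at ZT1 (-0.74, SE 0.17, or -0.026 with the block). These did not overlap either, and Rorb (-1.15, or 0.68 with the block) was called with times that did. Nr1h2 was at 2.23, 2.21 and 2.20 at ZT13 and at 3.25, 2.70 and 2.87 at ZT1 (-0.72, SE 0.16, or 0.61 with the block), without overlap. The receptors called for time in S714 livers had 12 further probes well above background on all 3 arrays of a time. Of these, 9 had the sign of the brightest probe and 3 the opposite. The 3 belonged to Rxra (-0.19), Thra (-0.002) and Nr2c1 (0.05). The second Rxrg probe had the same sign, at -0.17.

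Esrrb was at -2.62, -3.02 and -2.31 at ZT13 and at -0.25, -0.78 and -1.13 at ZT1 in S714 livers (difference -1.93, SE 0.26, or -1.72 with the block), while the S714G livers lay between -2.73 and -1.94 at ZT13 and between -2.51 and -2.43 at ZT1. The S714 livers at ZT1, the 3 liver arrays on slide 1, were thus the group that stood apart for this gene.

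The genotype by time interaction in liver was called for 8 receptors, 4 positive and 4 negative, where 32.1% of all genes were called (20.1% positive and 11.9% negative). Besides Ppard these were Esrrb (2.02), Rxrg (1.37), Nr2f1 (1.27), Rarg (-1.22), Nr5a2 (-0.73), Thrb (-0.71) and Nr4a2, which was negative with no size given, as its S714 arrays at ZT1 were not well above background. With the slide block Ppard alone was called, where 1.32% of all genes were. The median interaction was 0.24 over the receptors and 0.23 over all genes.

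**Figure D3:**
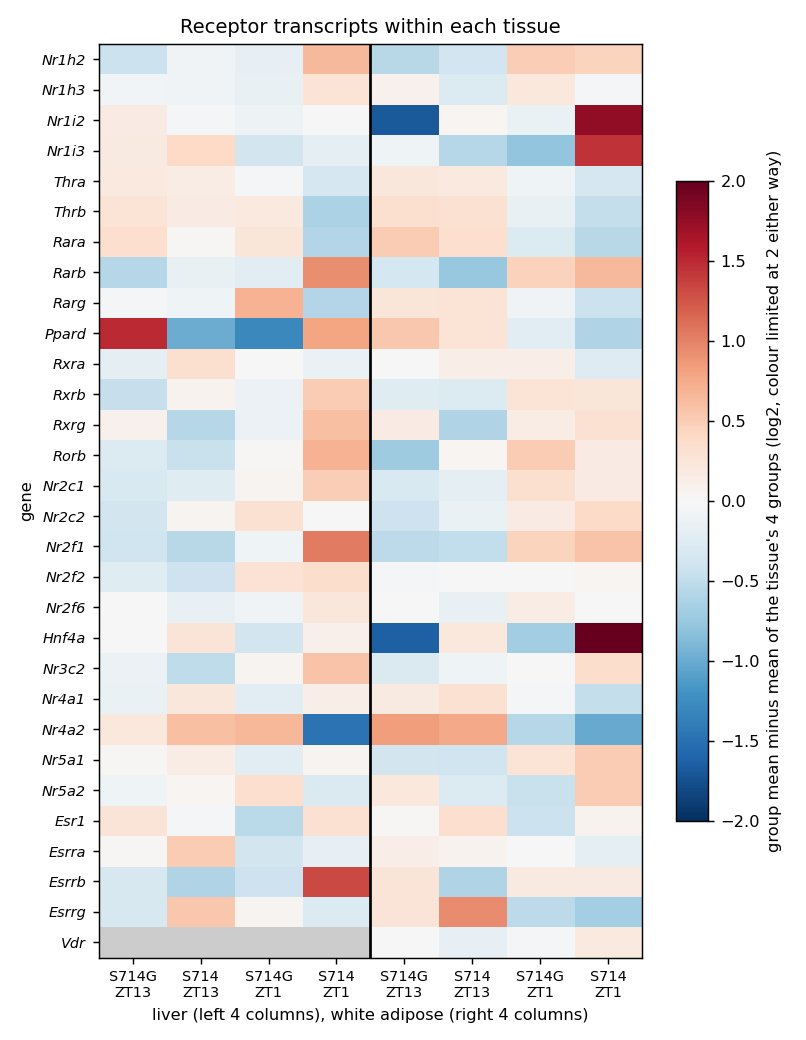
Group mean of each receptor minus the mean of its tissue's 4 groups (log2, colour limited at 2 in either direction) for the 30 receptors tested in a tissue. In liver Ppard is high in S714G at ZT13 and S714 at ZT1 and low in the other 2 groups. Vdr is grey in liver, where it did not pass the filter.

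In adipose tissue none of the 30 receptors was called between genotypes. At ZT13 limma called 0 receptors and 0.0428% of all 23368 genes. At an unadjusted p under 0.05 stood 1108 of all genes and 3 receptors. These were Rxrg, Esrrg and Nr1i2. Rxrg was at 2.27, 2.09 and 2.06 in S714G mice and at 1.74, 1.29 and 1.09 in S714 mice, a difference of 0.76 (limma adjusted p = 0.882). Esrrg was at -3.33, -4.08 and -4.04 in S714G mice and at -2.70, -3.65 and -3.04 in S714 mice, which overlap, a difference of -0.69 (limma adjusted p = 0.948). At ZT1 limma called 0 receptors and 0.0% of all genes, with 4 receptors and 1812 of all genes at an unadjusted p under 0.05. The median genotype difference over the receptors was 0.02 at ZT13 and 0.04 at ZT1, and over all genes 0.06 and -0.02. The genotype by time interaction was called for 0 receptors and 0.107% of all genes. At an unadjusted p under 0.05 stood 1607 of all genes and 2 receptors, Nr5a2 and Rxrg. The Rxrg interaction was 0.92 and the next by p, of Esrrg, was -0.84.

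Nr5a2 had the smallest p of the adipose receptors in both the ZT1 genotype comparison and the interaction. It was at -1.48, -1.51 and -1.42 in S714G mice at ZT1, against -0.40, -0.17 and -0.93 in S714 mice at ZT1. At ZT13 it was at -0.76, -0.98 and -0.70 in S714G mice, against -1.10, -1.55 and -1.21 in S714 mice. The S714G values lay below all S714 values at ZT1 and above them at ZT13. The differences were -0.97 (SE 0.23, limma adjusted p = 0.357) at ZT1 and 0.47 (limma adjusted p = 1.0) at ZT13, and the interaction of 1.44 (SE 0.33) was not called (limma adjusted p = 0.232). In a fit over all 24 arrays the ZT1 difference (limma adjusted p = 0.0464) and the interaction (limma adjusted p = 0.028) were called. Within slide 1, with 2 S714G and 3 S714 arrays, the ZT1 difference was -0.99.

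In liver the Nr5a2 interaction had the opposite sign, at -0.73 (SE 0.26, limma adjusted p = 0.0477). The difference between the liver and the adipose interaction was -2.17 (SE 0.40, limma adjusted p = 0.0117), and Nr5a2 and Ppard were the 2 of 30 receptors called in it, where 0.851% of all genes were called (0.502% positive and 0.35% negative). With the slide block the Nr5a2 value was -2.28 and no longer called (limma adjusted p = 0.0689). The brighter Nr5a2 probe lies at chr1:138740903-138740962 on the minus strand of mm9. A second probe at chr1:138741712-138741771 had interactions of 0.00 in liver and 0.01 in adipose tissue, so that it did not show the pattern. It was well above background on all 12 liver arrays and on 10 of 12 adipose arrays.

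RefSeq gives 2 start sites for Nr5a2, and the 250 bases before each (GRCm38.p6, minus strand) are shown because the tissues differ in this gene. Capitals mark the half-site AGGTCA. The upstream site, with chr1:136960449-136960698 before it, holds 1 half-site, and the other, with chr1:136953631-136953880 before it, holds none.
Nr5a2 first start: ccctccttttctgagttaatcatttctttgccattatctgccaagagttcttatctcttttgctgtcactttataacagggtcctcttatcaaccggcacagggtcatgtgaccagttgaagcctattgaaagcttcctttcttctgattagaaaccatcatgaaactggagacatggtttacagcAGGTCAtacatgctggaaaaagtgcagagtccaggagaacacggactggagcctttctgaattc
Nr5a2 second start: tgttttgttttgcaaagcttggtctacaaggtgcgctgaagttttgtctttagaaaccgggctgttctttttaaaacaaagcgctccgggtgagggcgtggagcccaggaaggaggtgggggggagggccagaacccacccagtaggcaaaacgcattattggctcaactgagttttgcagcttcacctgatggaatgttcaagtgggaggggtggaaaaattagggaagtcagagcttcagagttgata

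The time comparison in adipose tissue called 6 receptors in S714 mice, 3 higher and 3 lower at ZT13, where 15.9% of all genes were called (5.94% higher and 10.0% lower), and 0 in S714G mice, where 2.05% were. In S714G mice 11 receptors had an unadjusted p under 0.05, as did 6342 of all 23368 genes. The lowest of the receptors belonged to Nr4a2, at -1.27, -0.69 and -0.71 at ZT13 and at -2.47, -3.14 and -1.29 at ZT1 (difference 1.41, limma adjusted p = 0.084). Ppard came next (limma adjusted p = 0.0942), and then Nr1h2, at 2.13, 2.11 and 2.04 at ZT13 and at 3.95, 3.20 and 2.26 at ZT1 (-1.05, limma adjusted p = 0.111). Without S714G ZT1 replicate 3, which lay on another slide than replicates 1 and 2, 11 receptors were called in S714G mice. The share over all genes was not counted for that fit. In S714 mice Esrrg, the ERR gamma gene, was at -2.70, -3.65 and -3.04 at ZT13 and at -4.79, -4.61 and -4.89 at ZT1 (fitted difference 1.63, SE 0.28). It was well above background on 3 of 3 arrays at ZT13 and 1 of 3 at ZT1 in either genotype, so that it passed the filter through ZT13 alone and the size is uncertain. Nr4a2 was at -1.02, -0.96 and -0.94 at ZT13 and at -2.46, -3.12 and -2.62 at ZT1 (difference 1.76, SE 0.39). Rarb was at -2.89, -3.15 and -2.74 at ZT13 and at -1.96, -1.59 and -1.05 at ZT1 (difference -1.40, SE 0.38). None of these overlapped between times. Rxrg was at 1.74, 1.29 and 1.09 at ZT13 and at 2.18, 2.04 and 2.62 at ZT1 (difference -0.90, SE 0.28), also without overlap, and the other calls were Ppard and Nr5a2 (-0.78). Of 7 further probes of the 6 receptors, 6 had the sign of the brightest probe and 1, of Ppard (-0.34), the opposite. The second probes of Nr5a2 and Rxrg were at -0.03 and -0.11. ZT13 was on slide 2 and ZT1 on slide 1, and with the slide block 0 receptors and 0.201% of all genes were called. The block values were 1.74 for Esrrg, 0.25 for Nr4a2, 0.47 for Ppard, 0.02 for Rarb, -0.19 for Rxrg and -0.86 for Nr5a2. Without S714 ZT13 replicate 1 or replicate 3 the count was 0, and without S714 ZT1 replicate 2 or 3 or S714 ZT13 replicate 2 it was 1.

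Over all genotypes and times, 24 of 30 receptors differed between liver and adipose tissue, 12 higher and 12 lower in liver, where 75.3% of all 24314 genes were called (42.0% higher and 33.2% lower). Both tissues stood on each slide, so that the comparison could be made within slides. Within slide 3 (S714G ZT13) 19 receptors were called, where 73.5% of all genes were called. Within slide 2 it was 17 in S714G mice at ZT1 (47.2% of all genes) and 18 in S714 mice at ZT13 (45.1%), where 1 adipose and 1 liver array stood alone and were taken to vary like the arrays of the other tissue. Within slide 1 it was 15 in S714 mice at ZT1 (36.0%). The median difference was 0.09 over the 30 receptors and 0.15 over all genes.

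The largest differences belonged to receptors of the liver's metabolic programme. Hnf4a was 158-fold higher in liver (log2 difference 7.30, SE 0.41), with 4.70 to 5.59 (median 5.27) in liver and -4.49 to 2.47 (median -2.08) in adipose tissue. Nr1i3, which encodes the constitutive androstane receptor CAR, was 125-fold higher (6.96, SE 0.44), at 3.29 to 4.36 (median 3.92) in liver and -5.03 to -0.04 (median -3.29) in adipose tissue, where 10 of 12 arrays were well above background. Nr1i2, which encodes the pregnane X receptor PXR, a sensor of drugs and bile acids, was at 1.27 to 2.64 (median 1.98) in liver and -7.19 to -1.67 (median -5.03) in adipose tissue. It was well above background on 12 of 12 liver arrays and 5 of 12 adipose arrays, so that no fold is given. Nr5a2 was 14.7-fold higher (3.88, SE 0.10), at 2.26 to 3.26 (median 2.92) in liver and -1.55 to -0.17 (median -1.04) in adipose tissue. For each of these 4 genes the ranges of the tissues did not overlap.

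The 250 bases before the start of Nr1i3 (GRCm38.p6, chr1:171213720-171213969, plus strand) are shown as the 1 promoter of these 4 that holds an E-box, in capitals, at position -244 relative to the start.
Nr1i3: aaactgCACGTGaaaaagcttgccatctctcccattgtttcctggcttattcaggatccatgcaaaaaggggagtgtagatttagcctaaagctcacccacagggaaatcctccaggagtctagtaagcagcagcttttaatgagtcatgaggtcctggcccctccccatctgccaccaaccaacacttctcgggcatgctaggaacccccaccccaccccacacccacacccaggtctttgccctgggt

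Among the other receptors higher in liver, Esrrg was 6.74-fold higher, at -2.21 to -0.53 (median -1.23) in liver and -4.89 to -2.70 (median -4.28) in adipose tissue, where 8 of 12 arrays were well above background. Nr5a1, which encodes the steroidogenic factor SF-1, was 5.44-fold higher, at 0.96 to 1.75 (median 1.53) in liver and -1.58 to -0.07 (median -1.16) in adipose tissue. Esrrb was 5.02-fold higher, at -3.02 to -0.25 (median -2.42) in liver and -5.78 to -3.56 (median -4.28) in adipose tissue, also with 8 of 12 arrays well above background. Nr2f6, an orphan receptor of the COUP-TF family, differed by 1.59 (log2, SE 0.10), at 4.61 to 5.34 (median 5.01) in liver and 2.93 to 3.95 (median 3.42) in adipose tissue. The tissues did not overlap in these 4 genes. They did in Thrb (1.99-fold higher), Rarb (1.71-fold), Nr1h3 (1.46-fold) and Nr2c1 (1.18-fold).

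Among the receptors lower in liver, Nr2f1 was 8.24-fold lower, at -1.97 to 0.29 (median -1.40) in liver and 1.23 to 2.97 (median 1.48) in adipose tissue. Rarg was 5.75-fold lower, at -3.78 to -1.71 (median -2.92) in liver and -1.19 to 0.17 (median -0.24) in adipose tissue. Nr4a1, another immediate early receptor, was 3.38-fold lower, at -4.44 to -3.50 (median -4.10) in liver and -3.23 to -1.04 (median -2.29) in adipose tissue. Thra was 2.83-fold lower, at 1.25 to 2.30 (median 1.98) in liver and 2.76 to 3.79 (median 3.54) in adipose tissue. These 4 did not overlap between tissues. Nr4a2 (3.95-fold lower, well above background on 8 of 12 liver arrays), Esr1 (2.55-fold), Rxrg (1.84-fold), Ppard (1.55-fold), Nr1h2, Esrra and Nr2c2 did. Vdr was well above background on 0 of 12 liver arrays and at least 1.27-fold lower there. It passed the filter through adipose tissue alone, so that its entry into this comparison rested on the tissue where it was high.

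Of the thyroid hormone receptors, Thrb was thus higher and Thra lower in liver. Of the retinoic acid receptors, Rarb was higher, Rarg was lower and Rara was not called (0.34, limma adjusted p = 0.0687). Rxra, Rxrb, Rorb, Nr2f2 and Nr3c2 were not called either, with differences of -0.21 to 0.14 on their brightest probes. A second Rxra probe, well above background on all arrays, did not show this. Its group means were -0.91 to -0.25 in liver and -2.67 to -1.74 in adipose tissue. Those of a second Rorb probe overlapped, at -1.31 to -0.56 in liver and -1.68 to -0.91 in adipose tissue. The second probes were not tested.

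The tissue difference of Ppard depended on the group. It was -0.63 overall (SE 0.10, limma adjusted p = 1.3e-05). Within slides it was 0.33 in S714G mice at ZT13, -1.59 in S714 mice at ZT13, -1.98 in S714G mice at ZT1 and 0.76 in S714 mice at ZT1. Liver had the higher level in the groups where liver Ppard was high, and the last value was not called (limma adjusted p = 0.059). On slide 2 the S714 ZT13 comparison had 1 liver array and the S714G ZT1 comparison 1 adipose array.

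**Figure D4:**
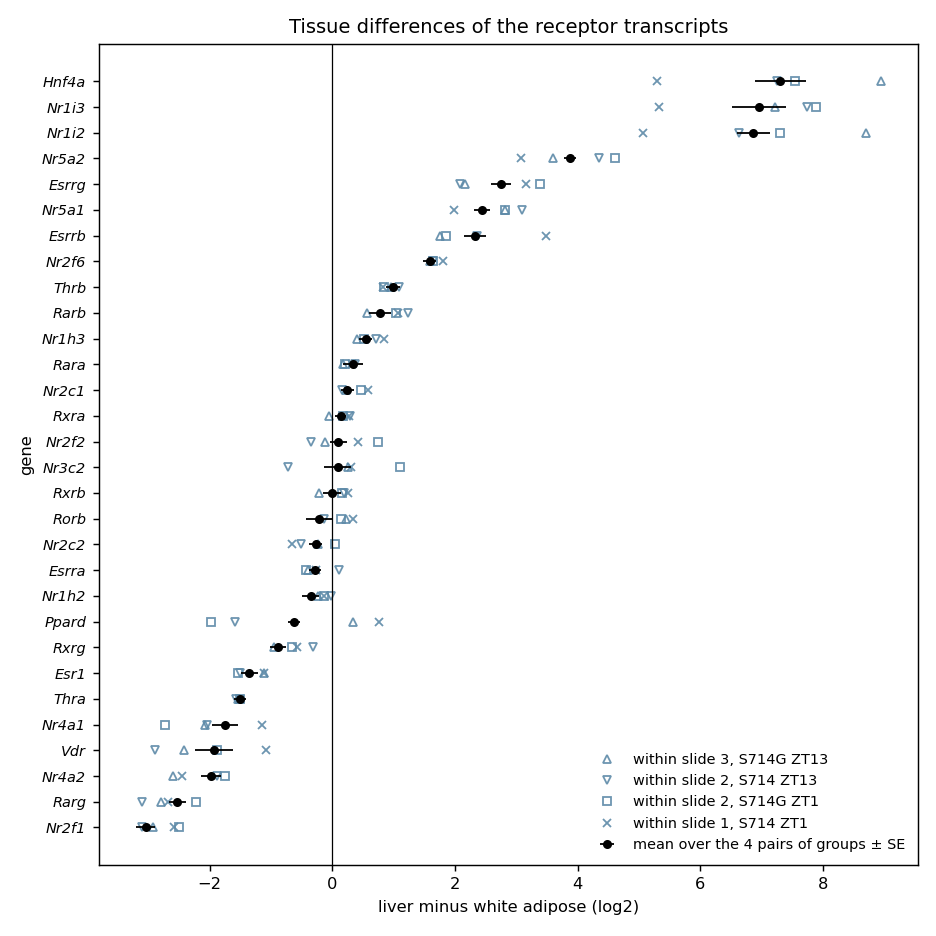
Difference liver minus adipose tissue (log2, bars are SE) for the 30 receptors over all 24 arrays, with the values within single slides as smaller points. Hnf4a, Nr1i3, Nr1i2 and Nr5a2 stand at 3.88 to 7.30, Nr2f1 and Rarg at -3.04 and -2.52, and the Ppard values within slides lie on both sides of 0.

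Receptor transcripts enriched in liver were followed on the adipose arrays beside Alb, which encodes albumin. Hnf4a was at -4.37, -2.57 and -4.30 in S714G mice at ZT13, against -0.97, -3.17 and -1.58 in S714 mice at ZT13. It was at -1.21, -4.49 and -2.72 in S714G mice at ZT1, against -1.48, 2.47 and -0.97 in S714 mice at ZT1. The array with the highest Hnf4a, S714 ZT1 replicate 2, also had the highest Alb (6.87), the highest Nr1i2 (-1.67) and the highest Nr1i3 (-0.04) of the 12. The array with the lowest Hnf4a, S714G ZT1 replicate 2, had the lowest Alb, at -1.78. Nr1i3 departed from this on S714G ZT13 replicate 3, where it was at -0.46 and Alb at 2.83.

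Hepatocyte markers summed to 7.06 to 7.79 in adipose S714G mice at ZT1 and 7.84 to 9.44 in S714 mice at ZT1, without overlap. Beside them stood the adipose ZT1 genotype differences of Hnf4a (-2.82, limma adjusted p = 0.568), Nr1i3 (-2.23, limma adjusted p = 0.704) and Nr1i2 (-1.92, limma adjusted p = 0.546), none called. Nr1i2 was at -4.92, -4.83 and -5.48 in S714G mice and at -3.98, -1.67 and -3.82 in S714 mice at ZT1, well above background on 1 of 3 S714G and 3 of 3 S714 arrays. At ZT13 it was at -7.19, -6.25 and -6.41 in S714G mice and at -3.70, -5.85 and -5.14 in S714 mice, and it was not called (limma adjusted p = 0.889). There it was well above background on 0 of 3 S714G and 1 of 3 S714 arrays, so that the size of a difference was not measured. Leaving out 1 array at a time moved the ZT1 genotype difference of Hnf4a between -3.61 and -1.58. The part of the hepatocyte transcripts in these values was not tested. Median differences of the 13 HNF4A target genes in adipose tissue were -1.57 at ZT13 and -3.02 at ZT1, with 0 genes called, and their medians in liver were -0.04 and 0.05. Apoa1, Apoa2, Apob, Ttr and Tat are in this list and among the hepatocyte markers, so that the lists are not independent.

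**Figure D5:**
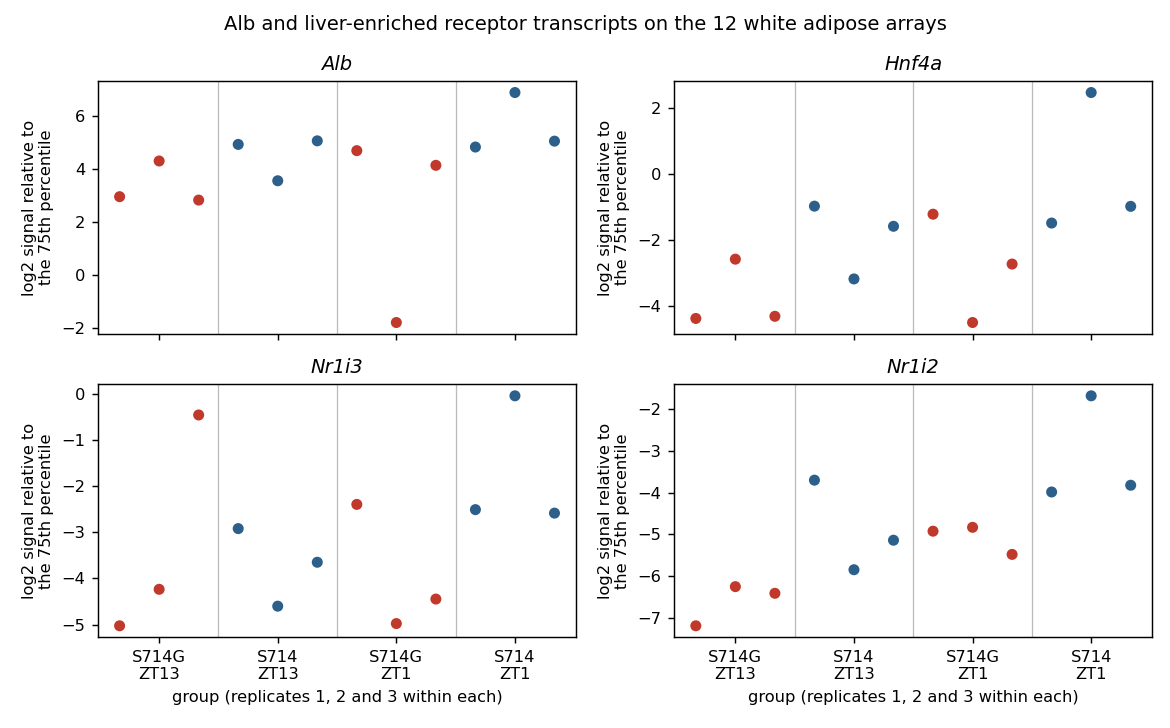
Log2 signal relative to the array's 75th percentile for Alb, Hnf4a, Nr1i3 and Nr1i2 on the 12 white adipose arrays, a panel a gene, with replicates 1 to 3 of each group from left to right. S714 ZT1 replicate 2 is the highest array in each panel, and S714G ZT1 replicate 2 is the lowest for Alb and Hnf4a.

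Receptors at the edge of detection had few measured values. Nr4a3, an orphan receptor of the same family as Nr4a2, was well above background on 0 of 24 arrays. The progesterone receptor gene Pgr reached that level on 1 liver array and 0 adipose arrays, Nr6a1 on 1 liver and 2 adipose arrays, and Hnf4g on 2 liver and 5 adipose arrays. For Nr4a1 it was 7 of 12 liver arrays and 12 of 12 adipose arrays. No genotype or time value is drawn from the receptors that passed in neither tissue.

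Across the 10 genotype, time and interaction comparisons, Ppard was called in 6 and 7 receptors in none. Those 7 were Nr1h3, Nr1i2, Nr2c2, Nr2f6, Nr4a1, Nr5a1 and Vdr. This rests on the brightest probe of each. A second Nr2c2 probe, well above background on all arrays, differed by 1.66 between genotypes in liver at ZT1. In S714 liver it differed by 1.41 between times, and its liver interaction was -2.025. On the brightest Nr2c2 probe these values were 0.30, 0.06 and -0.73. The second probes of Nr2c2 and Nr1h3 were not tested. In liver Nr2f6 spanned 4.61 to 5.34 and Nr1i2 1.27 to 2.64 over the 12 arrays.

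Target genes and partners of the other receptors were followed through 9 lists, some of which share a gene. At ZT13 in liver 1 of the 98 list members tested in liver rose and 7 fell, where 3.01% of all genes were called. Beyond Pdk4, Cpt1a and the PGC-1 genes, these were 2 of 14 CAR and PXR targets, the haem synthesis gene Alas1 (-1.10) and the P450 reductase gene Por (-1.39), 1 of 13 HNF4A targets, the gluconeogenic gene Pck1 (-1.05), and 1 of 8 immediate early genes, the phosphatase gene Dusp1 (-1.91). Within slide 3, where 4.29% of all genes were called, all of the 8 were called but Pck1 (limma adjusted p = 0.0944). Over all liver arrays without the block, 0 of 10 LXR targets, 0 of 7 thyroid hormone targets and 0 of 6 retinoic acid targets were called at ZT13. Of 10 enzymes that make or break down ligands 0 were called without the block. With the slide block 1 of these enzymes, Aldh1a3, was called, where 2.89% of all genes were called.

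At ZT1 in liver, where genotype and slide coincide and 46.6% of all genes were called (16.7% higher and 29.8% lower), 38 of the 98 list members tested were called. With the slide block it was 0 of them and 0.348% of all genes. Of 10 LXR targets 3 rose and 1 fell, including the phospholipid enzyme gene Lpcat3 (1.38) and the sterol transporter genes Abcg8 (1.78) and Abcg5 (1.22), with Apoe at -0.89. Of 6 retinoic acid targets 5 fell and 0 rose, among them Dhrs3 (-1.15) and Crabp2 (-1.24). Of 7 thyroid hormone targets 3 rose and 2 fell, with Me1 at 1.34 and Klf9 at -0.69. Among 14 CAR and PXR targets 2 rose and 2 fell, and among 13 HNF4A targets 2 rose and 2 fell. Of 20 coregulators 4 rose and 3 fell, of 8 immediate early genes 0 rose and 3 fell, and of 10 ligand enzymes 1 fell, the deiodinase gene Dio3 (-1.04). In adipose tissue 0 members of the 9 lists were called between genotypes at either time.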

How the data were processed

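Total RNA of liver and white adipose tissue was labelled with Cy3 and hybridised to 24 one-colour Agilent arrays of 62976 spots. The deposited intensity values are Agilent processed signals, already background-corrected by Feature Extraction 10.7.3.1, per the file headers. The authors' deposited table holds log2 values with column medians of -3.92 to -3.03, and 99.5% to 99.8% of its probes lay within 0.01 of the log2 processed signal minus the array's 75th percentile computed here. That quantity was used throughout. Control spots and spots called outliers were left out, spots of a probe were averaged (55681 probes), and the brightest probe over all arrays stood for a gene. A probe entered a tissue's fit if all 3 arrays of some group measured it well above background. No spot was saturated.

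Group means were fitted with limma 3.58.1 in R 4.3.3 over 12 arrays of a tissue, or all 24 for tissue contrasts and for the slide block. Tests were two-sided with Benjamini-Hochberg adjustment over all genes tested and a threshold of 0.05. Nothing states that arrays of a group are separate mice, so p-values measure the spread between these samples. In simulated data for S714G against S714 liver at ZT13 (21586 genes), 51% of 100 genes changed by 1 (log2) and 85% of 100 changed by 2 were called. The simulated arrays had independent noise and no slide effect, so that these shares need not hold for the measured arrays. The number of arrays limits the precision.

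The receptors, marker lists and target lists were chosen with earlier results of these data known. The genes named are the receptors, with every array given for those called without overlap or, where fewer than 3 were called, for the lowest p, and from each list up to 4 with the lowest p. Arntl, Dbp and Per1 served as a check. Bounds ("at least") set a dim group at the lowest signal well above background on each array. Positions of probes are in mm9, from the array design, and 51 of the 57 receptor probes matched RefSeq by accession, all with the same symbol and chromosome. Exons and UTRs under the probes were not used here. Alternatives were normexp with offset 50, quantile normalization, no signal filter, other probe rules, slide, replicate and title-prefix blocks, fits over 24 arrays, within-slide fits and leaving out each array. Promoter sequences are from RefSeq. Python 3.11.15 and pandas 2.3.3 were used for tables.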

Additional observations from a re-analysis of the deposited data

Results flagged for a closer look

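The genotype effect in liver differed between ZT13 and ZT1, by limma's test of the interaction, for 8 receptors. The differences were 4.57 for Ppard, 2.02 for Esrrb, 1.37 for Rxrg, 1.27 for Nr2f1, -1.22 for Rarg, -0.73 for Nr5a2 and -0.71 for Thrb. For Nr4a2 the fitted value was -2.53, but its S714 arrays at ZT1 were not well above background, so that its size was not measured. With slide as a block Ppard (5.13) was the only one of these that passed. The interaction itself differed between liver and adipose tissue, in the test of that difference, by 4.69 for Ppard and by -2.17 for Nr5a2. With the slide block these were 4.66 and -2.28, and Ppard passed. A second Ppard probe, which was dim in liver, and a second Nr5a2 probe did not show these patterns. Groups of 3 arrays were not searched for single arrays that stand apart.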

How the results depend on the processing

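Of the values of single receptors under the alternatives, 6249 kept their side of the threshold and direction, 235 lost it, 75 passed newly and 24 turned. The Ppard genotype and time calls in liver held under every alternative tried. Slide mattered most. With slide as a block the count of receptors called was 1 in place of 15 (genotype, liver ZT1), 2 in place of 1 (genotype, liver ZT13), 1 in place of 17 (time, liver S714), 1 in place of 8 (interaction, liver), 0 in place of 6 (time, adipose S714) and 1 in place of 2 (interaction, liver minus adipose). In the same order, the block called 0.348%, 2.89%, 0.761%, 1.32%, 0.201% and 0.222% of all genes. Within slide 3 the count was 3 for the genotype at ZT13 in liver (4.29% of all genes), and within slide 1 it was 15 for liver minus adipose tissue (36.0%).

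Values that turned with the slide block were Nr1h2 (0.50), Rara (-0.15), Rarb (0.27), Rxrb (0.21), Nr2c1 (0.30) and Nr2f1 (0.50) for the genotype in liver at ZT1. For time in S714 liver they were Nr1h2 (0.61), Rara (-0.031), Rarb (0.19), Rxrg (0.078), Rorb (0.68), Nr2f1 (0.024) and Nr3c2 (0.003). For the liver interaction they were Thrb (0.13) and Nr2f1 (-0.35), and for time in adipose S714 Rarb (0.021). For liver minus adipose tissue, Ppard (0.76 and 0.33), Nr2c2 (0.047) and Esrra (0.11) turned within a slide and Nr1h3 (-0.16) under quantile normalization. With the brightest probe of the tissue Nr2c1 turned (0.18 for the genotype in liver at ZT1, 0.054 for time in S714 liver). Nr4a1 turned under normexp (-0.39, time in S714 liver). The cause was not tested.

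A fit over 24 arrays, which pools the spread of both tissues, called 1 receptor for the genotype in adipose tissue at ZT1 (0.265% of all genes). It called 13 for time in adipose S714 (34.7% of all genes), 5 for time in adipose S714G (15.9%) and 1 for the adipose interaction (0.312%). For time in adipose S714 the count was 3 under quantile normalization, 2 with the replicate block and 1 with the title prefix block. Leaving out 1 array at a time gave 10 to 18 for the genotype in liver at ZT1, 1 at ZT13, 12 to 17 for time in S714 liver, 1 in S714G liver, 6 to 10 for the liver interaction, 0 for the genotype and interaction comparisons in adipose tissue, 0 to 4 for time in adipose S714, 0 to 11 in adipose S714G, 22 to 25 for liver minus adipose tissue and 2 to 4 for the interaction, liver minus adipose. The highest values of 11 and 4 came without adipose S714G ZT1 replicate 3. Deviations of samples with the same replicate number correlated at -0.51 to 0.14. As these are deviations from means of 3 arrays, they cannot tell whether samples of a number belong together. With the replicate block the counts were 13 (genotype, liver ZT1), 1 (liver ZT13), 15 (time, liver S714) and 8 (interaction, liver). Probes near background carry the least precise values.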

Other observations

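The adipose S714G ZT1 group is the 1 group of that tissue with arrays on slides 1 and 2. Several receptors had their slide 2 array outside the other 2 by a wide margin there. Nr5a1 was at -1.56 on slide 2 and at -0.07 and -0.48 on slide 1. Nr3c2 was at -3.54 on slide 2 and at -1.84 and -2.33 on slide 1. Nr5a2 in contrast was at -1.42 on slide 2 and at -1.48 and -1.51 on slide 1. Rorb was at 1.43 on replicate 2 and at -0.28 on replicate 1, both on slide 1, and at -0.71 on replicate 3.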
